A study of Mus musculus with 2 samples.

Results

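The microRNAs described here are the seed family of miR-25, miR-32, miR-92 and miR-363, the pair miR-19a and miR-19b, and the opposite arms of the hairpins of miR-25 and miR-92a-1. They were picked from the counts of mature miRNAs: mmu-miR-25-3p, mmu-miR-25-5p, mmu-miR-92a-3p, mmu-miR-92a-1-5p, mmu-miR-92b-3p, mmu-miR-363-3p, mmu-miR-32-5p, mmu-miR-19a-3p and mmu-miR-19b-3p, 9 of the 1905 mature miRNAs counted. They were taken by name and not by a threshold on a value. All 9 had reads in both libraries.

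The counts came from sncRNA-Seq of testes of mice at postnatal day 60 (strain C57BL/6 by the labels, C57BL/6J by the methods of the study), with 1 library from mice exposed to a mixture of endocrine-disrupting chemicals (EDCs) and 1 from control mice. The exposed mice received 3 phthalates (DEHP, DBP and BBP, plasticisers) at 0.3 mg per kg and day each and 2 alkylphenols (NP and OP, which derive from detergents) at 0.05 mg per kg and day each, in drinking water, through their mothers from post-coital day 0.5 to weaning and then directly up to day 60. The control mice drank water with the vehicle, at an estimated daily intake per kg of 0.25 g DMSO and 0.06 g ethanol, and the vehicle is common to both groups. Each library was made from a pool of equal amounts of RNA (n = 3 in the study), so that differences between mice cannot be seen. No result computed here has a replicate check, and every test compares 2 libraries and not 2 conditions.

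The exposed library held 501539 reads of mature miRNAs and the control library 550261, with 760 and 771 mature miRNAs detected in them. Reads were divided by size factors of 0.937 for the exposed and 1.07 for the control library, and these normalised reads gave the log2 ratio, exposed over control, with a 95% counting interval. The 484 mature miRNAs whose reads summed to at least 10 over both libraries were tested by an exact binomial test, 2-sided, adjusted by Benjamini-Hochberg over all of them. A miRNA was said to rise or fall where the adjusted p was under 0.05 and the log2 ratio 0.5 or more in size, and it was called higher or lower at any size at an adjusted p under 0.05 alone. Intervals and tests cover counting error only, and PCR copies of a molecule are not independent. The testis label was checked on 6 germ cell miRNAs, which had between 3772 and 38088 reads each in the exposed library and between 4269 and 45779 in the control library.

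A miRNA guides the silencing complex to messenger RNAs mainly through its seed, bases 2 to 8 from its 5′ end, so miRNAs that share a seed can bind many of the same sites. Most of the miRNAs here are cut from 3 related polycistronic transcripts, miR-17-92, its X-linked paralog miR-106a-363, and miR-106b-25, which lies inside the replication gene Mcm7. The miR-25 and miR-92 family is known for repressing Bcl2l11 (Bim), an inducer of apoptosis. In mice, the miR-17-92 cluster is needed for normal development of B cells, lung and heart, and it is active in dividing cells, which in the testis include spermatogonia.

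The sequences below, from RefSeq on GRCm38.p6, are given 5′ to 3′ with the seed in capitals, since the seed sorts the miRNAs into the groups in which their reads were summed. The first 5 share the seed AUUGCAC:

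mmu-miR-92a-3p: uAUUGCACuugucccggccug

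mmu-miR-25-3p: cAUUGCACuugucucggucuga

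mmu-miR-92b-3p: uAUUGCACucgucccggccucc

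mmu-miR-32-5p: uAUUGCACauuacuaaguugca

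mmu-miR-363-3p: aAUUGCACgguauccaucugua

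The miR-19 pair shares the seed GUGCAAA:

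mmu-miR-19a-3p: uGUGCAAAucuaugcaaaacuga

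mmu-miR-19b-3p: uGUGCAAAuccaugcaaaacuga

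The remaining 2 are the 5p arms, whose seeds no other mature miRNA in the reference shared:

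mmu-miR-25-5p: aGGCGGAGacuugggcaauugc

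mmu-miR-92a-1-5p: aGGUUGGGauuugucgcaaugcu

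Of the 1905 names counted, 1621 had a reference sequence. The only further one with the seed AUUGCAC was miR-367-3p, known from pluripotent cells, at 0 reads in both libraries, which allows a share of up to 0.000598% of reads in the exposed and 0.000545% in the control library. Counted from the 5′ end, miR-19a-3p and miR-19b-3p differed at 1 base (U11C, miR-19a-3p first). With miR-92a-3p first, miR-25-3p differed from it at U1C, C14U and C18U, and miR-92b-3p at U10C and G21C over the 21 bases of miR-92a-3p, whereas miR-32-5p differed at 10 and miR-363-3p at 11 of these bases. The authors allowed up to 3 mismatches in alignment, which is as many as separate miR-92a-3p from miR-25-3p, and only alignments with the fewest mismatches were kept. Reads of miR-19a-3p and miR-19b-3p, or of miR-92a-3p, miR-92b-3p and miR-25-3p, may therefore be assigned to the wrong one where a read carries errors. The 2 seeds are also close to each other on opposite strands. The reverse complement of AUUGCAC is GUGCAAU, which equals the miR-19 seed at 6 of 7 positions.

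All coordinates are on GRCm38. The hairpin of miR-25 lies at chr5:138165321-138165404 on the minus strand, within Mcm7 and on its strand, in an intron of 2 of the 3 Mcm7 transcripts that overlap it and in an exon of 1. It is the last hairpin of miR-106b-25, a run of 3 hairpins over 498 bases. In miR-17-92, a run of 6 hairpins over 836 bases in an exon of the lincRNA Mir17hg, miR-19a lies at chr14:115044000-115044081, miR-19b-1 at chr14:115044305-115044391 and miR-92a-1 at chr14:115044427-115044506, all on the plus strand. In miR-106a-363, 6 hairpins over 875 bases on the minus strand, miR-19b-2 lies at chrX:52741983-52742066, miR-92a-2 at chrX:52741838-52741928 and miR-363 at chrX:52741693-52741767, none of these 3 with an overlapping GENCODE gene. Thus mature miR-92a-3p and miR-19b-3p each have 2 hairpins, on chromosomes 14 and X, with identical mature sequence, and their reads cannot be assigned to either. The other 2 hairpins stand outside these clusters. That of miR-32 lies at chr4:56895229-56895298 on the minus strand, in an intron of all 5 overlapping transcripts of Tmem245, and that of miR-92b at chr3:89227116-89227198 on the minus strand, with no overlapping gene.

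The 9 miRNAs together had 8432 reads in the exposed and 10944 reads in the control library, which is 1.68% of the reads of exposed mice and 1.99% of those of control mice. Single miRNAs had between 6 and 4854 reads in the exposed and between 8 and 5936 in the control library. In both libraries the order was miR-92a-3p, miR-25-3p, miR-19b-3p, miR-19a-3p, miR-32-5p, miR-92b-3p, miR-92a-1-5p, miR-25-5p and miR-363-3p. The level of miR-92a-3p was 2.22 times that of miR-25-3p in exposed mice (95% interval 2.11 to 2.34) and 1.81 times in control mice (1.74 to 1.89), but 1.11 times in exposed and 0.906 times in control mice if the reads of miR-92a-3p, which has 2 hairpins, were counted at both and are halved. The neighbours miR-32-5p and miR-92b-3p, miR-92b-3p and miR-92a-1-5p, and miR-92a-1-5p and miR-25-5p did not differ beyond counting error in either library, while all other neighbours in the order did. Ligation and amplification can favour some sequences, so the order is one of reads.

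**Figure D1:**
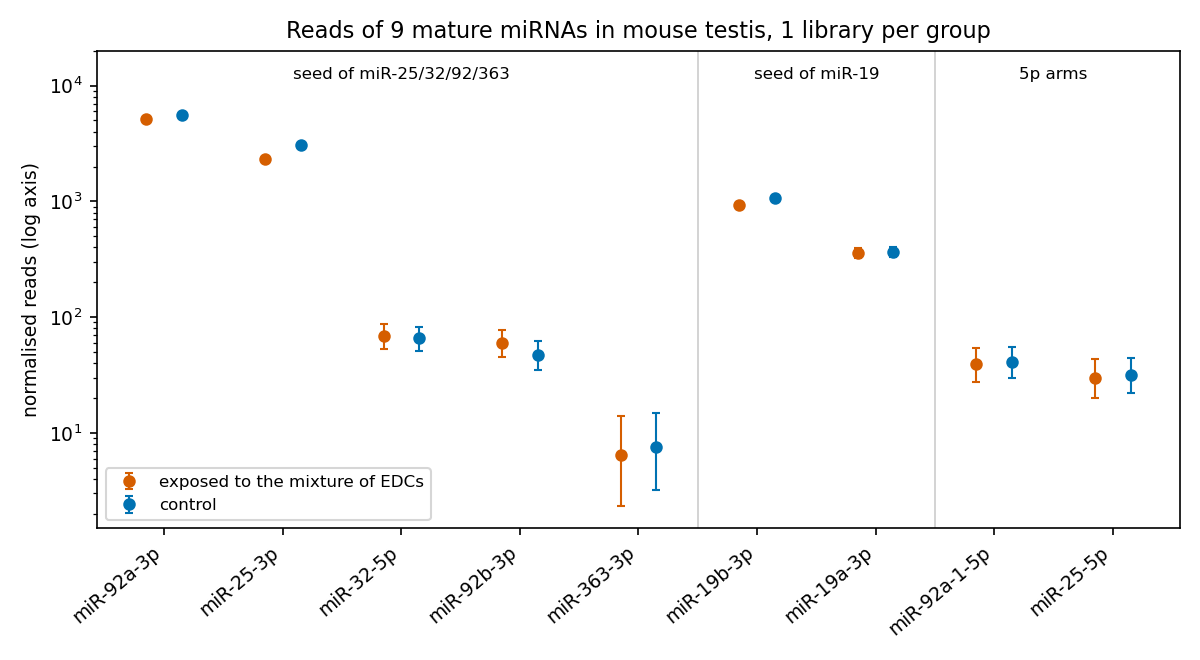
Normalised reads (log axis) of the 9 mature miRNAs in the exposed (orange, left of each pair) and control (blue) library, grouped by seed, with 95% counting intervals as bars. The points run from 5178 and 5564 normalised reads for miR-92a-3p to 6.40 and 7.50 for miR-363-3p, and the pair of miR-25-3p, at 2329 and 3071, stands furthest apart for its bars.

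None of the 9 rose or fell, that is, none passed the test with the size minimum, against 14 of all 484 tested (2.89%). At any size, 0 of the 9 were higher and 3 were lower, against 8.26% of all tested miRNAs higher and 9.30% lower. The 3 lower ones were miR-25-3p, miR-92a-3p and miR-19b-3p, the most abundant of the 9 and thus those with the narrowest intervals. The log2 ratio was above 0 for 2 of the 9 and below 0 for 7, with a median of -0.09, beside 220 above and 263 below with a median of -0.04 over all 484. By the methods of the study, RNA came from decapsulated testes and not from separated cells, so fewer cells of a type and less of a miRNA per cell cannot be told apart.

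Among the miRNAs with the seed AUUGCAC, miR-25-3p differed most between the libraries relative to its error. It had 2183 reads in exposed mice, or 0.435% of all reads (95% exact binomial interval 0.417% to 0.454%), and 3276 reads in control mice, or 0.595% (0.575% to 0.616%). These intervals, of shares before scaling, did not overlap, and neither did those of miR-92a-3p and of miR-19b-3p. By reads, miR-25-3p ranked 45th in the exposed and 39th in the control library. After scaling, exposed mice had 0.758 times the level of control mice (0.718 to 0.801), a log2 ratio of -0.40 (-0.48 to -0.32, adjusted p = 2.21e-22 by the exact binomial test). The reduction was thus lower at any size and short of the size minimum. Of the 42 mature miRNAs with at least as many reads as miR-25-3p over both libraries, none of the others had a lower ratio, and 1 other, miR-34b-5p at 0.60, was as far from 0. That cutoff is the depth of miR-25-3p itself. Among the 84 with at least as many reads as miR-19b-3p, log2 ratios ran from -0.63 to 0.60, so lower ones than that of miR-25-3p occurred. With edgeR's exact test, which adds a dispersion estimated from the same 2 libraries, miR-25-3p had an unadjusted p of 0.102 (adjusted p = 0.938), and 0 of the 9 and 0 of all 484 had an adjusted p under 0.05, with 17 of the 484 at an unadjusted p under 0.05. That dispersion takes both libraries as 1 group and so includes the difference that is tested, which makes few calls likely from the start.

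The most abundant of the family by reads as counted, miR-92a-3p, is known as a regulator of blood vessel growth. It had 4854 reads in exposed mice, or 0.968% of all reads (0.941% to 0.995%), and 5936 in control mice, or 1.08% (1.05% to 1.11%), and ranked 29th in both. Its level in exposed mice was 0.931 times that in control mice (0.896 to 0.967), a log2 ratio of -0.10 (-0.16 to -0.05, adjusted p = 0.00186 by the exact binomial test). With its reads halved the ratio was the same and the adjusted p became 0.053 by the exact binomial test. The lower level of miR-25-3p was larger than that of miR-92a-3p, the difference of the log2 ratios being -0.30 (-0.39 to -0.20), a value that does not depend on the scaling of the libraries. Of the 8 such differences chosen between these miRNAs, this was the only one whose interval excluded 0, and no p was computed for them.

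The 3 rarer miRNAs with this seed had at most 70 reads in a library and intervals to match. Intronic miR-32-5p had 64 reads in exposed mice and 70 in control mice, a log2 ratio of 0.06 (-0.45 to 0.57, adjusted p = 0.965 by the exact binomial test). For miR-92b-3p, best known from the nervous system, the counts were 56 reads in exposed mice and 50 in control mice, a log2 ratio of 0.35 (-0.23 to 0.93, adjusted p = 0.503 by the exact binomial test). X-linked miR-363-3p had 6 reads in exposed mice and 8 in control mice, a log2 ratio of -0.23 (-2.03 to 1.49, adjusted p = 0.937 by the exact binomial test). The intervals of all 3 held 0 and also a lower level as large as that of miR-25-3p for miR-32-5p and miR-363-3p, but not for miR-92b-3p. Set against miR-92a-3p, the log2 ratio differed by 0.16 for miR-32-5p (-0.35 to 0.67), by 0.45 for miR-92b-3p (-0.13 to 1.04) and by -0.12 for miR-363-3p (-1.93 to 1.59).

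Summed over all miRNAs with the seed AUUGCAC, exposed mice had 7163 reads, or 1.43% of all reads, and control mice 9340, or 1.70%. By summed reads this seed ranked 19th in the exposed and 17th in the control library, among 534 seeds with reads in each. The log2 ratio of the sum was -0.20 (-0.24 to -0.15). Its composition shifted with miR-25-3p, since miR-92a-3p made up 67.8% of the sum in exposed mice and 63.6% in control mice, and miR-25-3p 30.5% in exposed and 35.1% in control mice. These shares are of reads as counted. Halved for its 2 hairpins, miR-92a-3p had 2427 reads in exposed and 2968 in control mice, beside 2183 and 3276 of miR-25-3p.

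**Figure D2:**
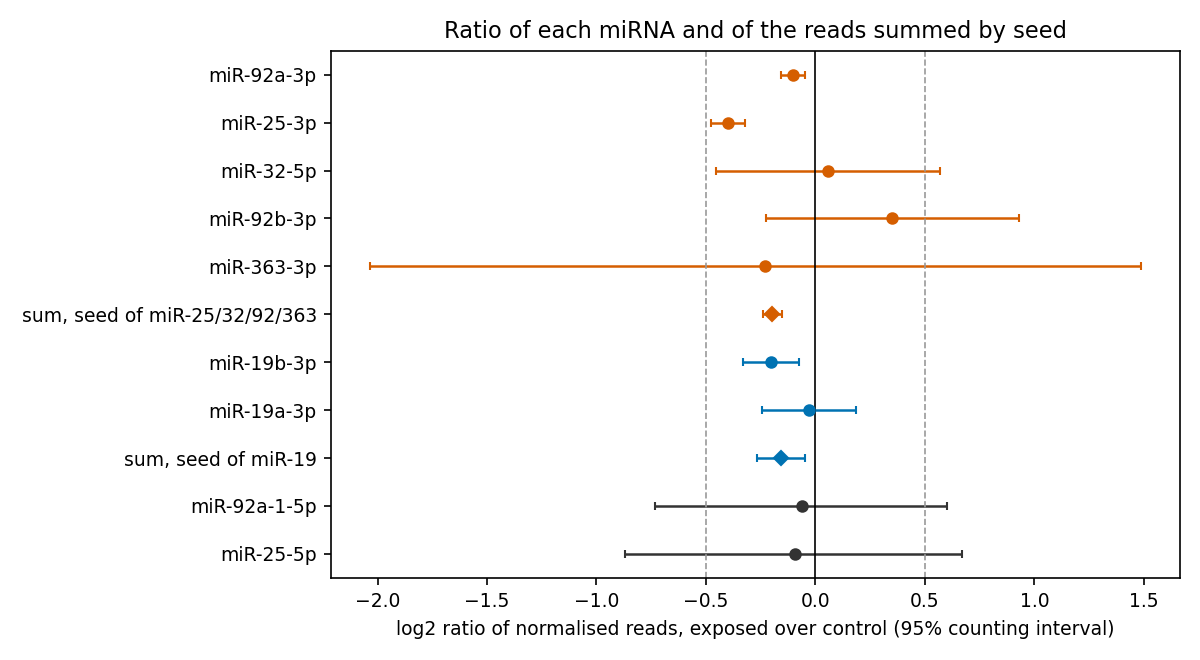
Log2 ratio (exposed over control) for each miRNA (circles) and for the reads summed by seed (diamonds), with 95% counting intervals as bars and dashed lines at the size minimum of 0.5 in either direction. The intervals of miR-92a-3p, miR-25-3p and miR-19b-3p lie below 0, none of these 3 reaches -0.5, and the interval of miR-363-3p runs from -2.03 to 1.49.

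In the miR-19 pair, which carries the part of miR-17-92 known to drive lymphoma in mice, miR-19b-3p was the more abundant. It had 868 reads in exposed mice, or 0.173% of all reads (0.162% to 0.185%), and 1136 in control mice, or 0.206% (0.195% to 0.219%). Exposed mice had 0.870 times the level of control mice (0.795 to 0.951), a log2 ratio of -0.20 (-0.33 to -0.07, adjusted p = 0.0136 by the exact binomial test). For miR-19a-3p the counts were 336 reads in exposed mice and 390 in control mice, a log2 ratio of -0.03 (-0.24 to 0.19, adjusted p = 0.937 by the exact binomial test). Although miR-19b-3p was lower at any size and miR-19a-3p was not, the log2 ratios differed by 0.17 (-0.08 to 0.42, miR-19a-3p minus miR-19b-3p), within counting error. The pair together had 1204 reads in exposed mice and 1526 in control mice, a log2 ratio of the sum of -0.16 (-0.27 to -0.05). With the reads of miR-19b-3p halved for its 2 hairpins, the ratio of the sum was -0.13 (-0.27 to 0.01), an interval that held 0. The summed ratio of the miR-19 seed differed from that of the seed AUUGCAC by 0.04 (-0.08 to 0.16).

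The counts of miR-92a-3p and miR-19b-3p carry a limit that the others do not. The deposited counts hold 0 reads under the heading of non-unique alignments, so a read of either miRNA may be counted at each of its 2 hairpins. All 4 counts concerned were even numbers, but of the 68 counts above 0 from miRNAs with 2 hairpins 44.1% were even, beside 41.1% of 1207 such counts from miRNAs with 1 hairpin, so not every such count is a doubled number. With the reads halved, miR-92a-3p had 2427 in exposed and 2968 in control mice and miR-19b-3p had 434 in exposed and 568 in control mice. Halving left the log2 ratios at -0.10 for miR-92a-3p (-0.18 to -0.03) and -0.20 for miR-19b-3p (-0.39 to -0.02), with intervals still below 0. With fewer reads the adjusted p became 0.053 for miR-92a-3p and 0.128 for miR-19b-3p by the exact binomial test, so that neither passed the threshold, while miR-25-3p did at an adjusted p of 2.75e-22.

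The 5p arms of miR-25 and miR-92a-1 are the strands that are mostly discarded when the hairpin is loaded. The hairpin of miR-25 is shown with its arms in capitals, miR-25-5p first and miR-25-3p second, because both arms were counted:

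Mir25 hairpin: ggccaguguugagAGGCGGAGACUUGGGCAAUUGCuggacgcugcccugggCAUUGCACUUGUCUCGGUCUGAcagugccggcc

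The 5p arm, miR-25-5p, had 28 reads in exposed mice and 34 in control mice, a log2 ratio of -0.09 (-0.87 to 0.67, adjusted p = 0.982 by the exact binomial test). The 3p arm had 78.0 times as many reads as the 5p arm in exposed mice and 96.4 times in control mice. Their log2 ratios differed by -0.31 (-1.07 to 0.47, 3p minus 5p), so neither a joint nor a separate reduction of the arms was detectable at this depth. For miR-92a-1-5p, the counts were 37 reads in exposed mice and 44 in control mice, a log2 ratio of -0.06 (-0.73 to 0.60, adjusted p = 0.991 by the exact binomial test). It came from chromosome 14 alone, and is the product by which the miR-17-92 hairpin of miR-92a can be told from its X-linked copy. Reads of miR-92a-3p were 131 times those of miR-92a-1-5p in exposed mice and 135 times in control mice, and the log2 ratios of these arms differed by -0.04 (-0.71 to 0.63, 3p minus 5p).

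The other arms of these hairpins were nearly absent. Only miR-32-3p had enough reads to be tested, with 18 in exposed and 18 in control mice, a log2 ratio of 0.19 (-0.84 to 1.21). In contrast to the 78.0-fold and 96.4-fold excess of the main arm at miR-25, miR-32-5p exceeded miR-32-3p 3.56 times in exposed mice and 3.89 times in control mice. There were 4 reads of miR-19a-5p in exposed and 5 in control mice, 3 of miR-92b-5p in exposed and 1 in control mice, 1 of miR-19b-1-5p in each, and 0 of miR-363-5p in exposed and 3 in control mice. The 5p arms made only by the X-linked hairpins of these miRNAs, miR-92a-2-5p and miR-19b-2-5p, were at 0 in both libraries. With miR-363-3p at 6 and 8 reads, every arm of these 9 miRNAs' hairpins that comes from miR-106a-363 alone was at or below 8 reads in each library.

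The cluster mates place these values among the miRNAs cut from the same transcripts, among which miR-17-5p, miR-20a-5p, miR-20b-5p, miR-93-5p, miR-106a-5p and miR-106b-5p share a seed. In miR-106b-25, all 6 mature miRNAs were tested, all 6 had log2 ratios below 0 with a median of -0.32, none fell, and 2 were lower at any size, miR-25-3p and miR-93-5p. Of these, miR-93-5p had 1932 reads in exposed mice and 2746 in control mice, a log2 ratio of -0.32 (-0.41 to -0.24, adjusted p = 8.94e-13 by the exact binomial test). In miR-17-92, 9 of 12 were tested, all 9 were below 0 with a median of -0.30, 5 were lower at any size and 1 of these fell. In miR-106a-363, 5 of 12 were tested and 2 were lower at any size, the shared miR-92a-3p and miR-19b-3p, with a median of -0.20. Over the 3 clusters together, 18 of 28 were tested, and 17 of these were below 0, beside 263 of all 484. At any size, 0 were higher and 7 lower, beside the 8.26% and 9.30% of all tested miRNAs. Each of the 7 had at least 131 reads in the exposed and 219 in the control library, against medians of 56 and 65.5 over all tested. Smaller ratios pass the test at more reads, so the shares over all 484 are no measure for miRNAs of this depth. miRNAs of 1 transcript share their source and are not independent, and these clusters were singled out with earlier results of the same libraries known.

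**Figure D3:**
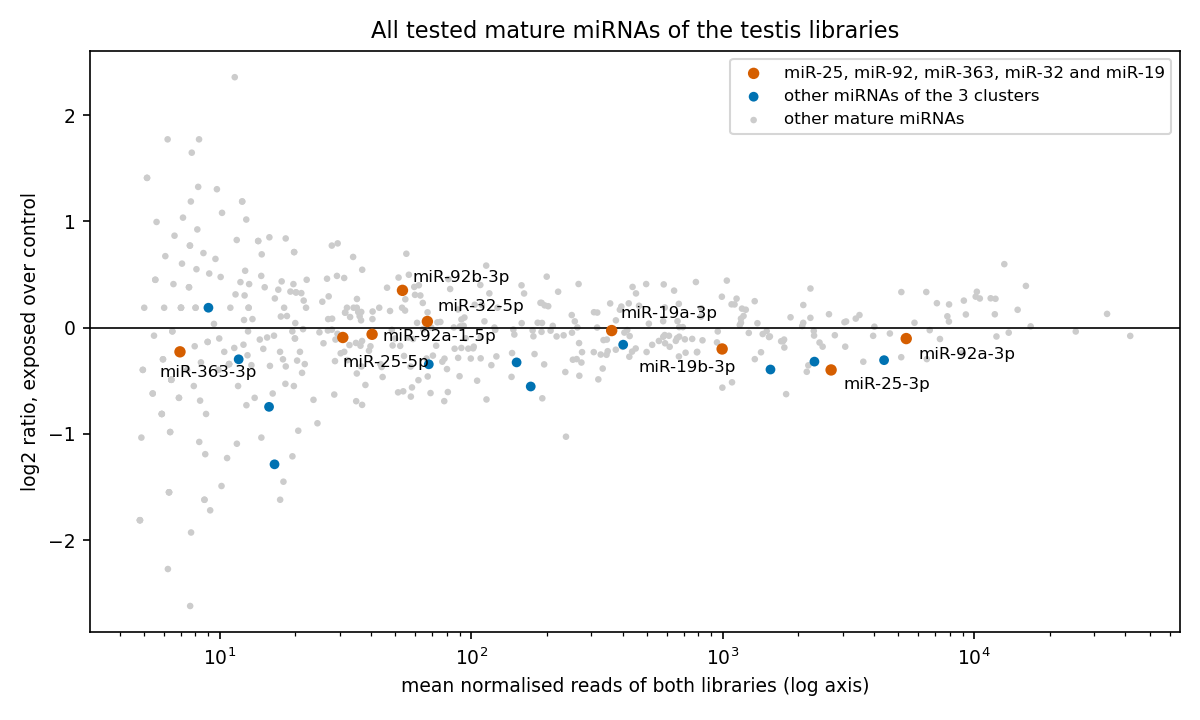
Log2 ratio (exposed over control) against mean normalised reads (log axis) for the 484 tested mature miRNAs in grey, with the 9 miRNAs in orange and the other miRNAs of the 3 clusters in blue. Scatter narrows to the right as reads grow, and there miR-25-3p at -0.40 lies along the lower edge of the cloud while miR-92a-3p at -0.10 lies within it.

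Within miR-17-92, the mates with the most reads lay further below 0 than miR-92a-3p and miR-19a-3p. Cell-cycle regulator miR-17-5p had 1255 reads in exposed mice and 1878 in control mice, a log2 ratio of -0.39 (-0.50 to -0.29, adjusted p = 7.61e-13 by the exact binomial test). Its close relative miR-20a-5p, the mate with the most reads, had 3675 in exposed mice and 5174 in control mice, a log2 ratio of -0.31 (-0.37 to -0.25, adjusted p = 1.12e-21 by the exact binomial test). The only mate that fell was miR-18a-5p, which the study had singled out on these same libraries, with 131 reads in exposed mice and 219 in control mice, a log2 ratio of -0.55 (-0.88 to -0.24, adjusted p = 0.0041 by the exact binomial test). The study also measured miR-18a-5p by RT-qPCR and reported a larger decrease there than in sequencing. With DESeq, it reported only miR-18a-5p as deregulated in miR-17-92, and no other of the miR-17 family but miR-20b-5p. Here, miR-17-5p, miR-20a-5p, miR-92a-3p, miR-19b-3p and miR-93-5p were also lower at any size, by a test that covers counting error only. Set against miR-20a-5p, the log2 ratio was higher by 0.20 for miR-92a-3p (0.12 to 0.29), by 0.28 for miR-19a-3p (0.05 to 0.50) and by 0.11 for miR-19b-3p (-0.04 to 0.25). These comparisons were picked after the ratios had been seen to lie apart, so their intervals, which cover counting error only, describe these 2 libraries and test nothing. The value of miR-92a-3p also includes reads from the X-linked hairpin, whose part cannot be told apart.

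Within miR-106b-25, miR-25-3p and miR-93-5p differed by only -0.08 in log2 ratio (-0.19 to 0.04, miR-25-3p minus miR-93-5p). Against miR-106b-5p, with 126 reads in exposed mice and 180 in control mice, the difference was -0.07 (-0.42 to 0.28). Against miR-106b-3p, with 356 reads in exposed mice and 453 in control mice, it was -0.24 (-0.46 to -0.02). These 3 comparisons, the 3 with miR-20a-5p and 1 of the arms of miR-32 were added after the values were seen. In miR-106a-363, miR-20b-5p, also singled out by the study, had 9 reads in exposed mice and 25 in control mice, a log2 ratio of -1.29 (-2.57 to -0.14, adjusted p = 0.108 by the exact binomial test), and miR-106a-5p had 9 in each.

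**Figure D4:**
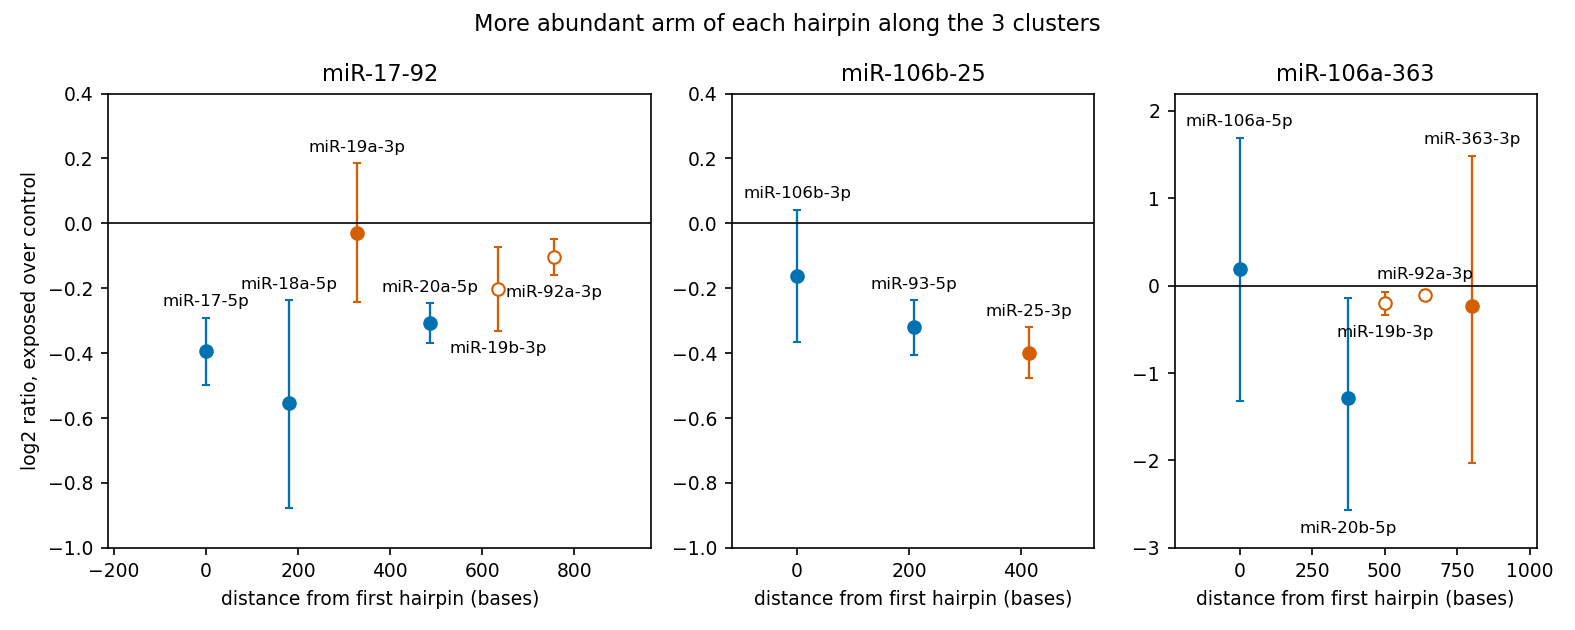
Log2 ratio (exposed over control) for the more abundant arm of each hairpin with at least 10 reads, against the distance of the hairpin from the first of its cluster in bases, in transcript direction. Orange marks the miRNAs described here and blue their mates, bars are 95% counting intervals, and open circles are counts shared by 2 hairpins and so drawn in both clusters. In miR-106b-25 the point of miR-25-3p lies at -0.40 beside miR-93-5p at -0.32, in miR-17-92 the points of miR-19a-3p and miR-92a-3p lie above that of miR-20a-5p, and the axis of miR-106a-363 covers a wider range.

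Markers of other cells in the decapsulated testis were read beside these values, since miR-25, miR-92a and miR-363 are also abundant in red blood cells and miR-17-92 is expressed in white blood cells. The 5 red blood cell markers summed to 209 reads in exposed and 208 in control mice, from 9 to 116 reads each in exposed and from 13 to 100 in control mice, with none of the 5 higher or lower at any size. Their summed log2 ratio was 0.19 (-0.09 to 0.48), with 3 of the 5 above 0 and 2 below, and miR-451a, the most abundant of them, had 116 reads in exposed and 100 in control mice. The 5 white blood cell markers summed to 194 reads in exposed and 231 in control mice, from 13 to 111 each in exposed and from 22 to 109 in control mice, a log2 ratio of -0.07 (-0.35 to 0.22), again with none higher or lower at any size. Of these 5, 4 were below 0 and 1 above, with a median of -0.18. The 1 above was the most abundant, miR-142a-5p, with 111 reads in exposed and 109 in control mice, so it weighs most in the sum. The 2 endothelial markers summed to 2948 reads in exposed and 3752 in control mice, from 247 to 2701 each in exposed and from 270 to 3482 in control mice, a log2 ratio of the sum of -0.16 (-0.23 to -0.09). Nearly all of these reads were miR-126a-3p, which at -0.18 was lower at any size, like miR-92a-3p, miR-19b-3p and miR-25-3p, while miR-126a-5p had a log2 ratio of 0.06 and was not called. No marker of these lists was at 0, and the part of endothelial cells in the results was not tested. Of the 6 germ cell markers, 3 were lower at any size and 2 were higher, with 3 log2 ratios above and 3 below 0 and a median of -0.01, and miR-34b-5p was the 1 that rose (0.60). They summed to 102191 reads in exposed and 112308 in control mice, a log2 ratio of the sum of 0.05 (0.04 to 0.06) after scaling. All mature miRNAs summed gave 0.05 too (0.05 to 0.06), so the germ cell sum did not stand apart from the whole library. Scaling by total reads moves both by -0.05. Of the pair of miR-202 arms of somatic gonad cells, miR-202-5p was higher at any size, with 2106 reads in exposed and 2069 in control mice, and miR-202-3p had 297 in exposed and 338 in control mice, a log2 ratio of 0.00. In smooth muscle, the call of higher at any size went to miR-143-3p, with 33084 reads in exposed and 34442 in control mice, and miR-145a-5p had 652 in exposed and 740 in control mice, again a log2 ratio of 0.00.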

How the data were processed

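Small RNA of the pooled testes was sequenced on a MiSeq (single-end, 65 nucleotides, 1.5 µg of RNA with a RIN above 9). The authors checked reads with FastQC, trimmed adapters with cutadapt, dropped reads under 12 nucleotides, aligned the rest to mm10 with bowtie, and counted them by HTSeq on miRBase 21. Versions of these tools: not given in the sources used here. The deposited values are whole-number read counts per mature miRNA, not normalised. A line of ambiguous reads, which names no miRNA, was left out (2595 in the exposed and 2919 in the control library, 0.515% and 0.528% of counted reads). Median depth over the tested miRNAs was 56 reads in the exposed and 65.5 in the control library.

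Size factors were medians of ratios. Intervals of ratios come from the Clopper-Pearson interval of the share of reads from the exposed library, and differences between ratios have exact conditional intervals. The study itself used DESeq, and the exact binomial test was taken in its place because 1 library per group gives no spread. Alternatives were 3 other scalings (total reads, total reads without the 10 most abundant miRNAs, and TMM), other read and size minimums, a pseudocount of 0.5, reads divided by hairpins, and the exact test of edgeR, its dispersion estimated from both libraries as 1 group. The tests were tried on simulated counts that held counting error only. No spread between mice or pools was simulated, so this could not check the calls against such spread. All miRNAs chosen by name were described in full, with the other arms of their hairpins, every miRNA with the same seed, and, of their cluster mates, those called and the 4 with the most reads. Other mates, and the miRNA named beside miR-25-3p for its depth, were picked after their values were seen. The miRNAs and lists were chosen with earlier results of these data known. Sequences are from RefSeq and host genes from GENCODE M21, both on GRCm38. Python 3.11.15, numpy 2.4.6, scipy 1.17.1, matplotlib 3.10.9, R 4.3.3, edgeR 4.0.16 and limma 3.58.1 were used.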

Additional observations from a re-analysis of the deposited data

How the results depend on the processing

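Of 123 values recomputed under an alternative, none turned round and 107 were rated as kept. Single ratios were so rated where they kept their direction and their side of the adjusted p threshold at any size. Sums, differences and counts were so rated after moderate changes too. For example, all miRNAs past the size minimum went from 14 to 20 with total reads. All lower at any size went from 45 to 55 with total reads without the 10 most abundant. Dividing reads by hairpins cannot change the ratio of a single miRNA, and a scaling moves all ratios by 1 amount. Many of the 107 could therefore hardly change, and they are not independent checks. The count of the 9 miRNAs lower at any size went to 1, against 3, with reads divided by hairpins, where miR-92a-3p and miR-19b-3p lost the call, and to 0 with edgeR's exact test, where miR-25-3p lost it too, which also called 0 of all 484 at any size in either direction, against 40 higher and 45 lower, and 0 past the size minimum, against 14. By that edgeR test, 17 of the 484 and 0 of the 9 had an unadjusted p under 0.05, and the exact p of miR-25-3p was 0.102 (adjusted p = 0.938). Its dispersion rests on the same 2 libraries taken as 1 group and includes their difference, so its lack of calls does not show that the levels were equal. With no size minimum, 3 of the 9 and 85 of all passed, and with one of 1.0, 5 of all. Scaling by total reads called 69 lower, against 45. The summed log2 ratio of the seed AUUGCAC was -0.25 with total reads and -0.24 with reads divided by hairpins, against -0.20. That of the miR-19 seed was -0.13 with reads divided by hairpins (-0.27 to 0.01), against -0.16, and is among the 107 although its interval came to hold 0. Over the scalings, miR-25-3p ranged from -0.45 to -0.37, miR-92a-3p from -0.16 to -0.08 and miR-19b-3p from -0.25 to -0.17. The scalings moved the ratios of all miRNAs by -0.05 (total reads), -0.03 (without the 10 most abundant) and 0.03 (TMM). No paired analysis was possible because each group has 1 library, and for the same reason no library could be left out. Ratios of the miRNAs with fewer than 100 reads are limited by depth.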
